A study of Homo sapiens with 2 samples.

Results

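The 10 genes described here encode the antigen-presenting molecules of major histocompatibility complex (MHC) class II, their chaperone and their transcriptional regulators. They are HLA-DRA, HLA-DRB1, HLA-DPA1, HLA-DPB1, HLA-DMA, HLA-DMB, HLA-DOA, CD74, CIITA and RFX5, out of 22411 genes with a row of their own on the array. They were chosen by gene symbol, with the values of both arrays already known, because some class II genes had larger values on one of them; the differences given are therefore descriptions. Each gene is represented by the row with the highest mean over both arrays among the rows that carry its symbol alone, and its other rows, including those for alternative MHC haplotypes, are given beside it. The values come from 2 Affymetrix Human Transcriptome Arrays, which measure 1 RNA sample each. One array held RNA from untreated parental NCI-N87 cells, a human gastric carcinoma line with an amplified ERBB2 gene, and the other held RNA from a line labelled as resistant to TDM-1 (T-DM1, trastuzumab emtansine, an antibody against the ERBB2 product HER2 that carries a microtubule poison). No dose, length of selection, passage or clonality of the resistant line is stated, nor whether drug was present at harvest. Both sample titles speak of cell lines in the plural, and whether more than 1 line was pooled is not stated. With 1 array per group no difference could be set against a spread between replicates, so no p-value or standard error is given, and having only 2 arrays limits how precise any value is.

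Class II molecules are pairs of an alpha and a beta chain that show peptides from the endosomal pathway to CD4+ T cells. CD74, the invariant chain, fills the groove of newly made pairs until proteases cut it down to a short peptide called CLIP, which HLA-DM (HLA-DMA with HLA-DMB) exchanges for antigen and HLA-DO (HLA-DOA with HLA-DOB) holds in check. Transcription of these genes rests on a complex at their promoters, made of the RFX subunits RFX5, RFXAP and RFXANK on the X box and NF-Y on the Y box, and on the coactivator CIITA, which interferon-gamma induces in cells that are not professional antigen presenters. Epithelial cells usually have little class II until such a signal is present.

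The promoters were searched for fixed letter patterns of the X and Y boxes that this complex is known to bind. Such patterns miss boxes written with other letters. RefSeq windows (GRCh38.p14) were available for 8 of the 10 genes and not for HLA-DRA and CIITA. The 150 bases before the annotated start are printed for CD74 and HLA-DMA, which were called higher on the resistant array. They are also printed for HLA-DRB1 and HLA-DMB, which encode beta chains and were not called. HLA-DMB, at 4.93 and 5.25, was too low on both arrays to be called. Each sequence is written 5′ to 3′ on the gene's own strand, which is the minus strand in all 4. Capitals mark the Y box core CCAAT on either strand (ATTGG on the reverse) and an X box core written CCNAGNNAC, also searched on both strands. The windows are chr5:150412911-150413060, chr6:32953098-32953247, chr6:32589849-32589998 and chr6:32941029-32941178.
CD74: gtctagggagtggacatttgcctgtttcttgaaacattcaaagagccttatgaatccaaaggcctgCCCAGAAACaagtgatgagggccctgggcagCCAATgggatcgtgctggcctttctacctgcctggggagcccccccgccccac
HLA-DMA: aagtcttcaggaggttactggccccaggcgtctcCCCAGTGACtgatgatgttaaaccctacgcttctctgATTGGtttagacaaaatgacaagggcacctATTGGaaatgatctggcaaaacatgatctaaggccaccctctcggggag
HLA-DRB1: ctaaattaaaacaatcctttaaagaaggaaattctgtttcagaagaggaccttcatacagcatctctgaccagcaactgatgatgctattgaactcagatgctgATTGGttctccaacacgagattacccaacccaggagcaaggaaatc
HLA-DMB: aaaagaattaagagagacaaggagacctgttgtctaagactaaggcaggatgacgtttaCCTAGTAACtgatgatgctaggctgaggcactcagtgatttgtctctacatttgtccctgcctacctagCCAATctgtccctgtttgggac

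In the 250 bases before the start, 7 of the 8 genes held CCAAT in at least 1 of their windows, against 32.0% of all 35116 RefSeq windows. The X box core first written down, CCTAGNNAC, was in 2 of the 8 genes, HLA-DMB and RFX5, against 2.60% of windows. The looser CCNAGNNAC, written after the members' sequences had been seen and containing the first form, was in 6 of the 8 against 13.7%. That core followed by CCAAT within 50 bases was in 3 genes, CD74, HLA-DMA and HLA-DOA, against 0.518% of windows. For this pairing the X box core was searched on the gene's own strand only, and CCAAT on either strand. Both shares of the looser core concern sequences already seen, so they are descriptions and no test. CD74 and HLA-DMA were called higher. HLA-DOA, at 4.32 and 4.37, was too low on both arrays to be called. The STAT site core TTCNNNGAA was in none of the 8, against 6.57% of windows. RFX5 had 3 windows and HLA-DPA1 had 2, which overlap or share a locus, and genes with several windows had more chances to match. These matches are letters in a window, and binding was not measured. A gene without a match may still hold an X box. HLA-DRB1, counted as lacking the looser core, holds accagcaac, which differs from that core only in its opening letter.

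HLA-DRA, CD74 and HLA-DMA were called higher on the resistant array, and none of the 10 genes was called lower. A gene was called when its values differed by at least 1 on the log2 scale, a 2-fold difference, and the higher value was at or above 5.79, the median over all genes of the higher of their values (the floor). Of all 22411 genes, 4.79% were called higher and 4.56% lower; of the 11206 genes at or above it, 9.58% were called higher and 9.12% lower. Of the 10 genes, 6 reached the floor on at least 1 array and could be called: HLA-DRA, HLA-DRB1, HLA-DMA, CD74, CIITA and RFX5. The other 4 lay under it on both arrays. Resistant minus parental differences ran from 0 to 3.73, with 8 above 0 and 2 at exactly 0, and their median was 0.58 against 0.03 over all genes. Since the genes were picked with these values known, the count and the median describe the choice as much as the cells.

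**Figure D1:**
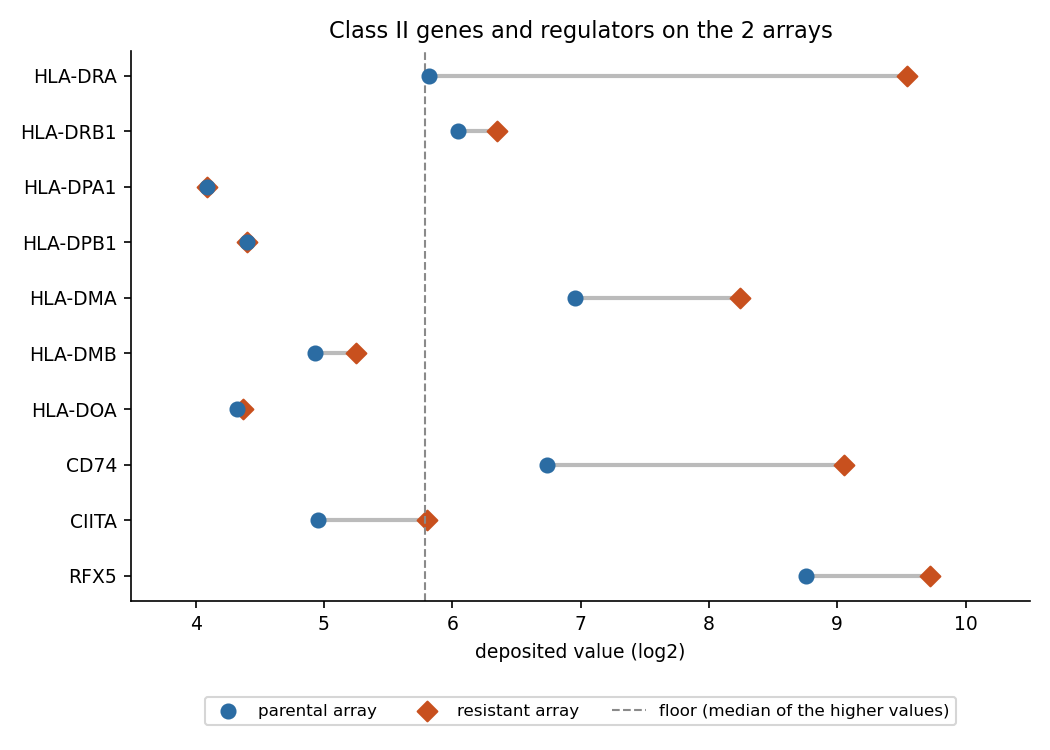
Deposited log2 value (x axis) of each of the 10 genes (y axis) on the parental array (blue circles) and the resistant array (orange diamonds), with a grey line joining the pair and a dashed line at the floor of 5.79. HLA-DRA, CD74 and HLA-DMA have the longest lines, CIITA ends at the floor, and HLA-DPA1 and HLA-DPB1 have coinciding symbols under it.

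HLA-DRA, the alpha chain shared by all HLA-DR molecules, had the largest difference of the 10. Its value was 5.82 on the parental array, just above the floor, and 9.55 on the resistant array; these differed by 3.73, or 13.2-fold on the deposited scale. Among the 11206 genes that reached the floor, 38 (0.339%), HLA-DRA included, had a difference at least as high. All 7 rows of HLA-DRA were called, with differences between 3.61 and 3.82. Its row on the primary assembly went from 5.71, under the floor, to 9.32, which is at least 11.5-fold against the floor. The 7 rows hold 5 distinct pairs of values, so some repeat the same measurement and they are not independent of each other.

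HLA-DRB1, the beta chain that pairs with it, did not show a difference of that size. Its highest row, on an alternative haplotype, was 6.04 in parental and 6.35 in resistant cells, a difference of 0.31. The row of the primary assembly was 4.67 and 4.87, under the floor on both. Another 6 rows carry HLA-DRB1 together with HLA-DRB3 or HLA-DRB4 and cannot be given to one gene. They lay between 4.69 and 5.66 on the 2 arrays and differed by 0.11 to 0.38. HLA-DRB4 differed by 0.20 in its highest row and by 0.44 in its other row, and HLA-DRB5 was listed at 4.63 on both arrays. Among the single and joint DRB rows, none came near the HLA-DRA difference. DRB genes are close paralogues and HLA-DRB1 is highly polymorphic, so a row may read several genes or miss the allele these cells carry. The alleles of the line were not measured here, and the part this plays in the low values was not tested.

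The HLA-DP chains, another class II pair, lay under the floor on both arrays. HLA-DPA1, the alpha chain, was listed at 4.09 on both arrays, and 7 of its 8 rows had identical values on the 2 arrays. Its 8 rows hold 4 distinct pairs of values, so some repeat the same measurement. HLA-DPB1, its beta chain, was listed at 4.40 on both, and its 8 rows differed by -0.04 to 0. Over the whole deposited table, 2.38% of rows were identical on both arrays. All rows of both genes lay under the floor, so these arrays do not show whether either gene differed.

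HLA-DMA, the alpha chain of the peptide exchange factor HLA-DM, was 6.96 in parental and 8.24 in resistant cells, a difference of 1.29 or 2.44-fold. The call rests on the row used. Of its 8 rows 2 passed the size rule. The primary-assembly row was 6.43 and 7.25, a difference of 0.81, and the other rows lay between these values. All 8 rows had the higher value on the resistant array, and they hold 4 distinct pairs of values. HLA-DMB, the partner chain, was 4.93 and 5.25, under the floor on both arrays, and its 8 rows differed by 0.28 to 0.35. HLA-DOA, the alpha chain of the HLA-DM inhibitor, was 4.32 and 4.37, also under the floor. HLA-DOB, which is outside the 10 genes, went the other way, at 5.21 and 4.43, a difference of -0.79 under the floor.

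**Figure D2:**
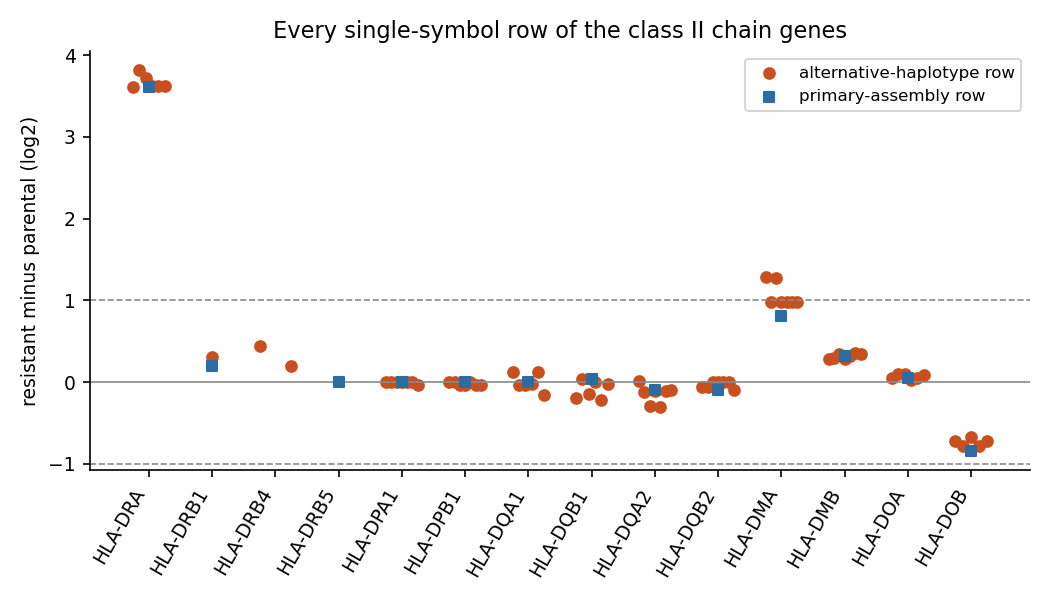
Resistant minus parental difference (y axis, log2) of every row with a single class II chain symbol (x axis), for alternative-haplotype rows (orange circles) and primary-assembly rows (blue squares); dashed lines mark the size rule at 1 and -1. The HLA-DRA rows lie between 3.61 and 3.82, the HLA-DMA rows straddle 1, and no row of the other chains reaches either line.

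CD74, the invariant chain, had the second largest difference. It was 6.74 in parental and 9.05 in resistant cells, above the floor in both, a difference of 2.31 or 4.96-fold. It has a single row and lies on chromosome 5, away from the MHC. Among genes that reached the floor, 1.35% had a difference at least as high. The list of CD74 ligands and co-receptors showed no call among its 5 members. Among those that reached the floor, the largest difference was that of CD44, the co-receptor through which CD74 signals, at 11.1 and 11.5.

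The regulators among the 10 genes had smaller differences than HLA-DRA and CD74. CIITA, the coactivator that sets class II transcription, was 4.96 on the parental array, under the floor, and 5.80 on the resistant array, at the floor. The measured difference was 0.85, and against the floor it was at least 1.01-fold. RFX5, the DNA-binding subunit of the RFX complex, was 8.75 and 9.72, a difference of 0.97, just under the size rule. Among genes that reached the floor, 10.1% differed by at least as much in that direction. HLA-DMA at 1.29 was the member nearest to the threshold from above and RFX5 at 0.97 the nearest from below.

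The other genes of the promoter complex differed in both directions. Among the 6 measured, all of which reached the floor, 2 were called lower and none higher, and the median was -0.44. Of all genes that reached the floor, 9.12% were called lower and 9.58% higher. RFXAP, the RFX-associated protein, was 8.03 in parental and 6.10 in resistant cells, a difference of -1.93. Its 100 nearest genes on chromosome 13 that reached the floor had a median difference of -0.87, and 47 of them were called lower. NFYA, a subunit of NF-Y, was 8.36 and 6.92, a difference of -1.44, and its 100 neighbours had a median of -0.14. RFXANK, the ankyrin-repeat RFX subunit, differed by -0.47, NFYB by 0.41, NFYC by 0.16 and CREB1, a factor of the X2 box, by -0.41. RFXANK, NFYB, NFYC and CREB1 were not compared with their neighbours.

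The other class II genes, which the list adds to the 10, gave no call. All 7 with a single-symbol row lay under the floor on both arrays. In their highest rows HLA-DQA1 (4.52 and 4.50), HLA-DQB1 (4.36 and 4.34), HLA-DQA2 (4.51 and 4.41) and HLA-DQB2 (5.60 and 5.50) differed by at most 0.11 in size. Among all rows of these genes the largest difference in size was -0.30, in a row of HLA-DQA2. The list median was -0.02.

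Genes of the chromosome 6 class II region that are not class II genes did not share the HLA-DRA difference. In gene order, 7 other genes with a row lie between the outermost class II genes; none was called higher and 1 was called lower, and their median was -0.26. The gene called lower was TAP1, a subunit of the peptide pump for class I molecules, at 8.32 and 6.93. Of the 40 measured genes before the region 1 was called higher, and of the 40 after it 2 were. The share called higher was 4.79% of all genes and 9.58% of those that reached the floor. Over the 100 nearest genes that reached the floor, the median difference was 0.30 around HLA-DRA and 0.23 around HLA-DMA, with 16 and 14 called higher and 2 called lower in each. Less these medians, HLA-DRA differed by 3.42 and HLA-DMA by 1.06. The neighbours of CD74 had a median of -0.03, those of CIITA 0.15 and those of RFX5 -0.15. A wider hand-written list of 25 measured genes in and beside the region gave no call higher, TAP1 as its only call lower, and a median of 0.

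**Figure D3:**
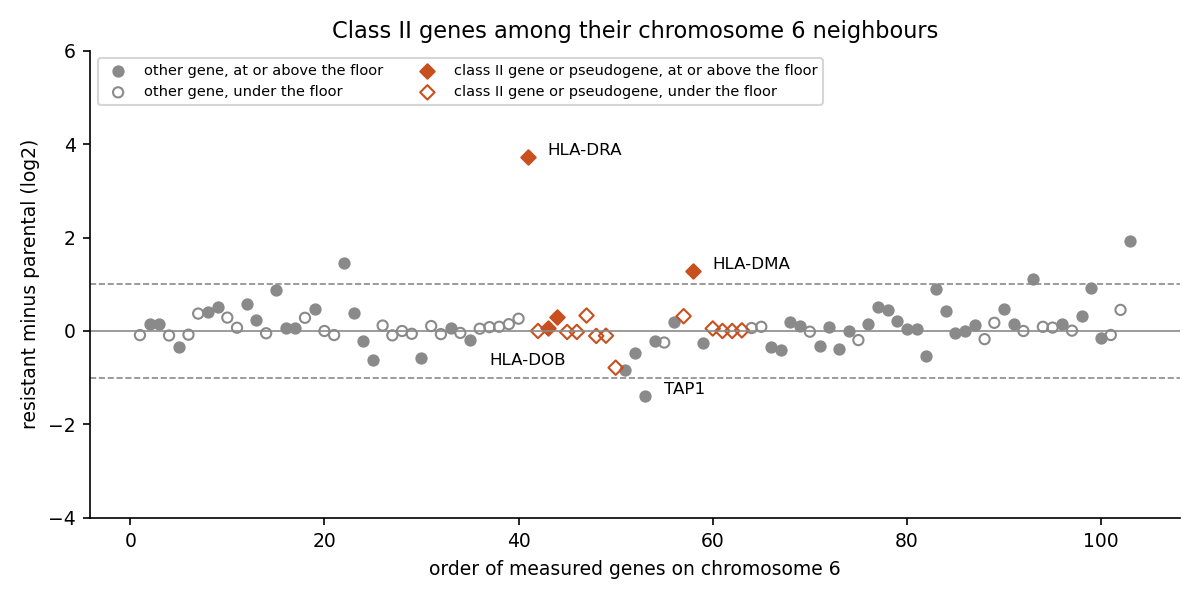
Resistant minus parental difference (y axis, log2) of genes in their order along chromosome 6 (x axis, equal steps, not to distance), from 40 measured genes before the class II region to 40 after it; class II genes and pseudogenes are orange diamonds, other genes grey circles, and open symbols lie under the floor on both arrays. HLA-DRA at 3.73 stands above its neighbours, HLA-DMA is at 1.29, and TAP1, at -1.39, lies between them.

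Genes induced by interferon-gamma, the usual inducer of CIITA, differed mostly downward. Among the 17 measured, of which 12 reached the floor, calls went 1 up and 6 down. For comparison, 9.58% of all genes that reached the floor were called higher and 9.12% lower. Of the 17 differences 13 were negative, some of them in genes under the floor on both arrays, and the median was -0.48. The guanylate-binding proteins GBP4 (8.30 and 5.65), GBP2 (8.15 and 5.90) and GBP1 (9.07 and 7.52), all interferon-induced GTPases, and the tryptophan tRNA ligase WARS1 (12.3 and 10.6) were called lower. GBP4, GBP2 and GBP1 all lie on chromosome 1, and they were not compared with their neighbours, nor was WARS1. The gene called higher, named after its value was seen, was APOL1, at 8.83 and 9.90. Of 10 measured genes of the receptor and its signalling, none was called, and the median was 0.04. Among those that reached the floor, the largest difference was that of the receptor chain IFNGR1, at 9.20 and 8.25.

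Cofactors and repressors of CIITA and class II transcription were called in both directions. Among the 8 measured, all of which reached the floor, calls went 1 up and 3 down, and the median was -0.53. The shares over all genes that reached the floor were 9.58% higher and 9.12% lower. PRDM1 (BLIMP1), a repressor of CIITA in plasma cells, was 7.97 in parental and 6.05 in resistant cells, a difference of -1.92. Its 100 neighbours on chromosome 6 had a median difference of -1.02, and 51 of them were called lower. The histone deacetylase HDAC2 (8.22 and 6.83) and the chromatin remodeller SMARCA4 (a difference of -1.16) were called lower, and the histone methyltransferase EZH2 (7.76 and 9.29) was called higher. HDAC2 also lies on chromosome 6, and it was not compared with its neighbours, nor were SMARCA4 and EZH2.

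Proteases and helpers of the class II pathway were split. Among the 11 measured, of which 9 reached the floor, calls went 2 up and 2 down, and the median was 0.19. The shares over all genes that reached the floor were 9.58% higher and 9.12% lower. CTSS, cathepsin S, which trims the invariant chain to CLIP in antigen-presenting cells, was 8.90 and 6.57, a difference of -2.33. Its 100 neighbours on chromosome 1 that reached the floor had a median difference of -0.15. CTSB, cathepsin B, a lysosomal protease, differed by -1.63. CTSV, cathepsin V, a protease that cuts the invariant chain in thymic epithelium, was 6.09 and 7.80, a difference of 1.71. IFI30, the lysosomal thiol reductase GILT that unfolds antigens for class II loading, was 10.4 and 11.6, a difference of 1.17. Its 100 neighbours on chromosome 19 had a median difference of -0.46, and 28 of them were called lower. CTSB and CTSV were not compared with their neighbours. CTSS and CD74, the chain it cuts, differed in opposite directions.

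Costimulatory and T cell ligands gave 1 call in each direction among 10 measured, of which 5 reached the floor, and the median was -0.003. Of all genes that reached the floor, 9.58% were called higher and 9.12% lower, so a list this short shows little. ICAM1, an adhesion ligand of T cells, was 8.33 and 9.64, and CD274 (PD-L1), an inhibitory ligand, was 6.22 and 5.20. CD80 and CD40, costimulators of professional antigen presenters, lay under the floor on both arrays; they and CD86 (5.02 and 5.84) were named after their values were seen. Among 14 measured class I and peptide-loading genes, TAP1 was the single call, and the median was -0.19.

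**Figure D4:**
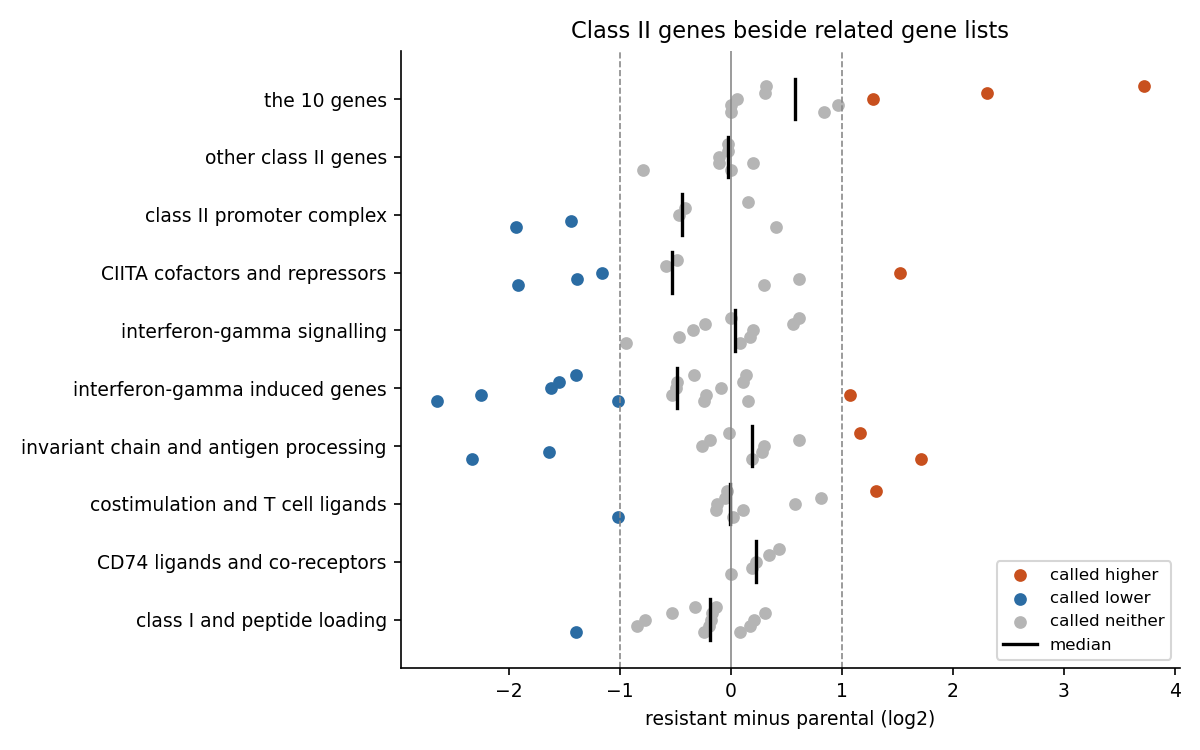
Resistant minus parental difference (x axis, log2) of each measured gene in the 10 genes and in 9 related lists (y axis; vertical offsets only separate points), coloured orange where called higher, blue where called lower and grey otherwise, with a black bar at each median. The median of the 10 genes is 0.58, that of interferon-gamma induced genes -0.48 and that of the promoter complex -0.44.

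Markers of immune cells, among which B cells, macrophages and dendritic cells carry class II constitutively, were mostly under the floor. In bulk RNA, fewer cells with a transcript and less transcript per cell cannot be told apart. Of 24 measured markers of leukocytes, B cells, macrophages and monocytes, dendritic cells and T cells, 19 lay under the floor on both arrays; without the 4 T cell markers it was 15 of 20. There was 1 call higher and no call lower, where 4.79% of all genes were called higher and 4.56% lower. The median difference was 0.004. Their summed level, as log2 of the sum of unlogged values, was 11.17 in parental and 11.15 in resistant cells. That sum rests on CD68, a lysosomal marker of macrophages, which was the highest of them at 10.6 and 10.3. Without CD68, left out after its values were seen, the sum was 9.63 in parental and 9.98 in resistant cells. The median difference was then 0.008, and LYZ, given below, had the largest difference of these markers. The part these markers play in the class II differences was not tested. The pan-leukocyte marker PTPRC (CD45) was 4.06 on both arrays, and the B cell marker MS4A1, the monocyte marker CD14 and the dendritic marker FLT3 were between 3.87 and 4.11. The marker called higher was LYZ, lysozyme, which glandular epithelium also makes, at 6.38 and 7.91. The other 4 that reached the floor were not called. They were the B cell marker CD79A (7.25 and 7.62, a difference of 0.37) and the dendritic marker ITGAX (5.82 and 6.04, 0.23). The macrophage and monocyte markers among them were CD68 (-0.25) and TYROBP (5.93 and 5.90, -0.03). The epithelial markers were high on both arrays: EPCAM was 13.2 and 13.7, KRT8 17.3 and 17.0, and CDH1, E-cadherin, which was called lower, 15.1 and 14.0.

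None of the genes whose values lay nearest to those of the called members was a class II gene. This follows from the values above and is no separate result. The uncalled class II chains reached at most 6.35 on the resistant array, and the called members lay apart from each other. Likeness was the Euclidean distance between pairs of values on the 2 arrays, which are only 2 points per gene. ANXA6, TRNP1 and MUC1 were nearest to HLA-DRA (distances of 0.132, 0.284 and 0.454), SPNS2, STX2 and THBS3 to CD74 (0.061 to 0.071), and CAP2, MT1F and RNFT2 to HLA-DMA (0.029 to 0.041).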

How the data were processed

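Total RNA of 1 parental NCI-N87 sample and 1 sample labelled TDM-1 resistant was hybridised to 1 array each. The authors deposited log2 values for 70523 rows; the scale was taken as log2 because that is the usual output of Affymetrix Expression Console, the program per the submitters' processing notes. For its algorithm, version, genome build and array normalization, the sources used here name nothing. The column medians were 4.76 on both arrays. Values above 16, the ceiling of a 16-bit scanner, occurred in 650 parental and 693 resistant rows, so folds hold only on the deposited scale. Hybridisation controls (bioB to cre) differed by at most 0.138.

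The platform annotation named 23781 rows with 1 gene symbol and 1543 with several, which were left out; 45199 rows are unnamed here. Symbols were updated through the NCBI gene table (GRCh38.p14): 21497 rows matched its gene identifiers, 1974 its symbols and 306 its synonyms, and 4 kept their given symbol. Rows were reduced to the one with the highest mean per gene. Differences, the size rule, the floor and gene lists were computed in Python 3.11.15 with pandas 2.3.3, and there is no test. All 10 genes, the genes of the other class II and promoter complex lists, up to 4 called genes of each other list (or, with no call, the most different gene that reached the floor) and the 3 protein-coding genes nearest to each called member are named. The members and lists were chosen with earlier results of these data known. Alternatives changed the array scaling, the row per gene, the floor, the size threshold and the local chromosome level.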

Additional observations from a re-analysis of the deposited data

How the results depend on the processing

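HLA-DRA and CD74 were called higher under all 12 alternatives, between 3.42 and 3.95 and between 2.28 and 2.37. HLA-DMA (0.81 to 1.51) was called under 8 of 12. It was 0.81 with its lowest row or its primary-assembly row (an alternative chosen after seeing the data), and its resistant value of 8.24 lay under the 75th-percentile floor. By construction it also failed a 4-fold threshold. RFX5 (0.89 to 1.12) was called less the median of its neighbours (1.12), and with a 1.5-fold threshold, as was CIITA (0.70 to 0.85), which raised the members called higher to 5. HLA-DRB1 (0.004 to 0.53), HLA-DMB, HLA-DOA, HLA-DPA1 and HLA-DPB1 were called under none of the 12. Calls over the whole table numbered 2166 higher and 2016 lower at 1.5-fold, 234 and 251 at 4-fold, and 640 lower with the 75th-percentile floor, fewer or more by construction. The other 40 alternative counts stayed within 1.5 times. With quantile normalization or the mean of a gene's rows, list medians moved by at most 0.04 and none turned sign. Over members at or above the floor alone, the median went from -0.003 to 0.58 for the costimulation list (5 members), from 0.19 to -0.02 for the invariant chain and processing list, from -0.48 to -0.77 for interferon-gamma induced genes and from 0 to -0.19 for the region list. Without detection calls, the 4 members under the floor have no usable level. No paired analysis was possible because each group has 1 array.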
